A study of Homo sapiens with 3 samples.

Results

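The calpain system was examined through 8 genes, namely CAPN1, CAPN2, CAPNS1, CAST, CAPN5, CAPN7, CAPN10 and CAPN15, out of 20162 protein-coding genes in the annotation. The genes were CAPN1 and a selection of its relatives, with 9 further calpain genes used only for comparison, and each distinct peak interval over their bodies or within 50 kb of them was taken from the peak list of each histone mark. This gave 46 of the 18585 H3K4me3 intervals and 78 of the 24096 H3K27ac intervals. The intervals came from untreated cells of the established line H2087, derived from a human lung adenocarcinoma. Chromatin immunoprecipitation followed by sequencing (ChIP-seq) had been carried out with antibodies against histone H3 trimethylated at lysine 4 (H3K4me3) or acetylated at lysine 27 (H3K27ac), as part of a search for regulatory regions. The labels name 1 library per mark and 1 input library, which was not analysed here. No value below has a replicate, and no test was made.

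Calpains are cysteine proteases that are switched on by calcium and cut a limited number of bonds in cytoskeletal, adhesion and signalling proteins. CAPN1 and CAPN2 encode the large catalytic subunits of the ubiquitous µ-calpain and m-calpain, CAPNS1 encodes the small regulatory subunit that both share, and CAST encodes calpastatin, the inhibitor specific for these enzymes. CAPN5, CAPN7, CAPN10 and CAPN15 encode calpains that do not follow the classical domain plan. H3K4me3 is typically deposited around active promoters, and H3K27ac around active promoters and enhancers, so that the pair of marks separates starts in use from other regulatory DNA.

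The sequences on which the comparison turns are shown first, on the plus strand of hg19, which is the coding strand of all 8 genes. The first set holds bases just upstream of the canonical starts of CAPN1, CAPN2, CAPN7 and CAPNS1. The canonical start is the start of the transcript that Ensembl tags as representative. Within 1 kb of it, CAPN1 had intervals of both marks, CAPN2 of H3K27ac alone, and CAPN7 and CAPNS1 of neither. The printed bases of this set themselves lay under no interval of either mark. Capitals mark GGGCGG on either strand, the GC box bound by SP and KLF factors. The stretches lie at chr11:64949315-64949389, chr1:223899991-223900240, chr3:15247503-15247658 and chr19:36630718-36630854, outside annotated exons of protein-coding genes.
CAPN1: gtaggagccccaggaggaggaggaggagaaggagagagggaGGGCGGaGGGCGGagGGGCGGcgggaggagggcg
CAPN2: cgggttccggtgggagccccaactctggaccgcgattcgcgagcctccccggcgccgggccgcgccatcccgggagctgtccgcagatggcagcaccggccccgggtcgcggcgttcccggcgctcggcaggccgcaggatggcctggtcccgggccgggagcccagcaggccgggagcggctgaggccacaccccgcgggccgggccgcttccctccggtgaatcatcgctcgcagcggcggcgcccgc
CAPN7: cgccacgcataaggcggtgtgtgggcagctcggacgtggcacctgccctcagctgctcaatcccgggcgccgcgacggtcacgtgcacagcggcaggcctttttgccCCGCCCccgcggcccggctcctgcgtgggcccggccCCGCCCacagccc
CAPNS1: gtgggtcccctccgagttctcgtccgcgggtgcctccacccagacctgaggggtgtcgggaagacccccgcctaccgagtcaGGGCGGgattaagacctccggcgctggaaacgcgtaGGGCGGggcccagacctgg

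The second set holds bases inside the intervals themselves. For CAPN5 (chr11:76777454-76777685) and CAPN10 (chr2:241525348-241525583) these are the bases covered by both marks upstream of the start, and for CAST (chr5:95992157-95992456) the central bases of a strong H3K27ac interval upstream of its canonical start. Capitals mark GGGCGG and CCAAT on either strand, and CAPN10 held no match in the stretch shown.
CAPN5: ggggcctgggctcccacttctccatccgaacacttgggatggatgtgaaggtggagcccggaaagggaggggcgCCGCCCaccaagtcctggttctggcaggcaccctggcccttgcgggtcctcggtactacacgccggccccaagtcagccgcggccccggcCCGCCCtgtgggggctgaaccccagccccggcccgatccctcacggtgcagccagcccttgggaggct
CAPN10: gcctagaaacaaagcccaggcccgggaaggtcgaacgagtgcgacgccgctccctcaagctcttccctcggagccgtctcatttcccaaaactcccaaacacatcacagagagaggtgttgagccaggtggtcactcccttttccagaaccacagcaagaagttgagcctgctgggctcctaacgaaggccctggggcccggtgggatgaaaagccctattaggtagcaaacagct
CAST: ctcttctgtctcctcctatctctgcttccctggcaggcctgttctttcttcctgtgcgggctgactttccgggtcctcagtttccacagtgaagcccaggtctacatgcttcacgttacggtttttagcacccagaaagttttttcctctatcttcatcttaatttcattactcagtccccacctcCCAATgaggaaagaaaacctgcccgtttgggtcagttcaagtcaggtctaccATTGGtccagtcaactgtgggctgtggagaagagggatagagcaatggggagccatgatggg

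The stretches differ in length and position, so GC boxes were counted in equal windows from 250 bases before to 50 after each start. These held 5 matches for CAPN1, 5 for CAPN7, 4 for CAPNS1 and 0 for CAPN2, so that CAPN1 and the unmarked CAPN7 had the same number. A match describes the letters and does not show that a factor bound.

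H3K4me3 intervals lay within 1 kb of the canonical start of 5 of the 8 genes (CAPN1, CAST, CAPN5, CAPN10 and CAPN15), against 41.3% of all protein-coding genes. H3K27ac intervals lay within 1 kb of 6 starts, the same 5 and CAPN2, against 25.2%. Both marks were found at 5 starts (20.4% of all genes) and neither at 2, CAPN7 and CAPNS1 (53.8% of all genes). At CAPN1, whose start was marked by an H3K27ac interval at 41 bp, a further and higher one began at 1003 bp. By the nearest interval, distances close to the 1 kb limit were 488 bp (H3K4me3) and 568 bp (H3K27ac) at CAPN10. They were 576 bp (H3K27ac) at CAPN15, 1040 bp (H3K27ac) and 1319 bp (H3K4me3) at CAPNS1, and 1143 bp (H3K4me3) at CAPN2. CAPN2 and CAPNS1 thus missed the limit by little, whereas CAPN7 had no interval of either mark over its body or within 50 kb, which held for 23.6% of all genes.

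**Figure D1:**
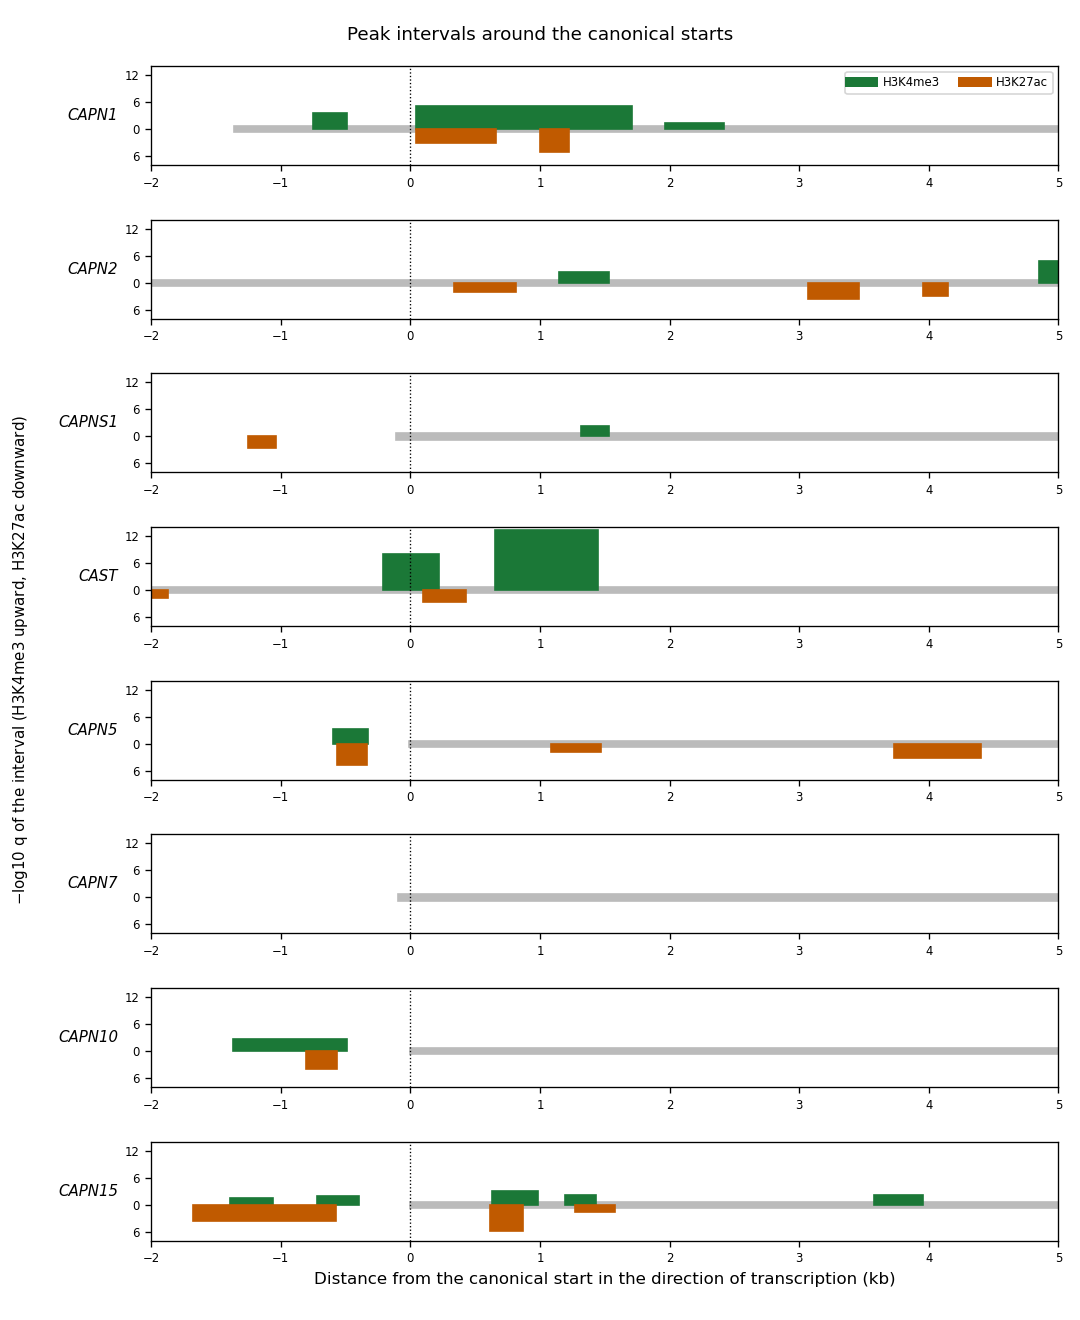
Each panel shows 1 gene, with distance from the canonical start in kb on the x axis and the −log10 q of each interval on the y axis, H3K4me3 (green) drawn upward and H3K27ac (orange) downward, and the annotated gene as a grey bar. CAPN1 has H3K4me3 from 41 to 1707 bp, CAST is the gene with a start inside an interval, CAPN5 and CAPN10 carry H3K4me3 on the upstream side within this window, and CAPN7 is empty.

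The plot of intervals around the starts shows that the position of the marks differed among the genes. At CAPN1 the H3K4me3 intervals left a gap of 529 bp, from 489 bp upstream to 41 bp downstream. At CAPN15 the gap was 1026 bp for H3K4me3 and 1189 bp for H3K27ac. CAST was the single member with its first base inside an interval, an H3K4me3 interval reaching from 214 bp upstream to 220 bp downstream. Starts inside an interval were uncommon in general, with 7.14% of the protein-coding starts marked by H3K4me3 and 4.33% of those marked by H3K27ac.

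The height of an interval is given as −log10 q, where q is the false discovery rate assigned by the authors' peak caller, and the highest value within 1 kb of the start was compared with that of all marked starts of the same mark. For H3K4me3, CAST reached 13.4, which was above 99.3% of marked starts, and CAPN1 reached 5.10, above 72.2%. The other values were 3.36 for CAPN5 (above 39.3%), 2.96 for CAPN15 (29.3%) and 2.68 for CAPN10 (23.3%), all under the median of 3.76. For H3K27ac the order was different. CAPN15 was highest with 5.82 (above 90.3%), followed by CAPN5 with 4.65 (81.9%) and CAPN10 with 3.98 (70.5%). Below these were CAPN1 with 3.05 (49.7%), CAST with 2.59 (35.2%) and CAPN2 with 2.16 (20.5%). The place of CAPN1 hung on the limit, since a further H3K27ac interval of CAPN1 with 5.12 began at 1003 bp. It was not counted, though its value was above that of CAPN5. The inhibitor gene thus had the highest H3K4me3 value but ranked 5 of 6 for H3K27ac, and no replicate shows how far neighbours in either order would exchange places.

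**Figure D2:**
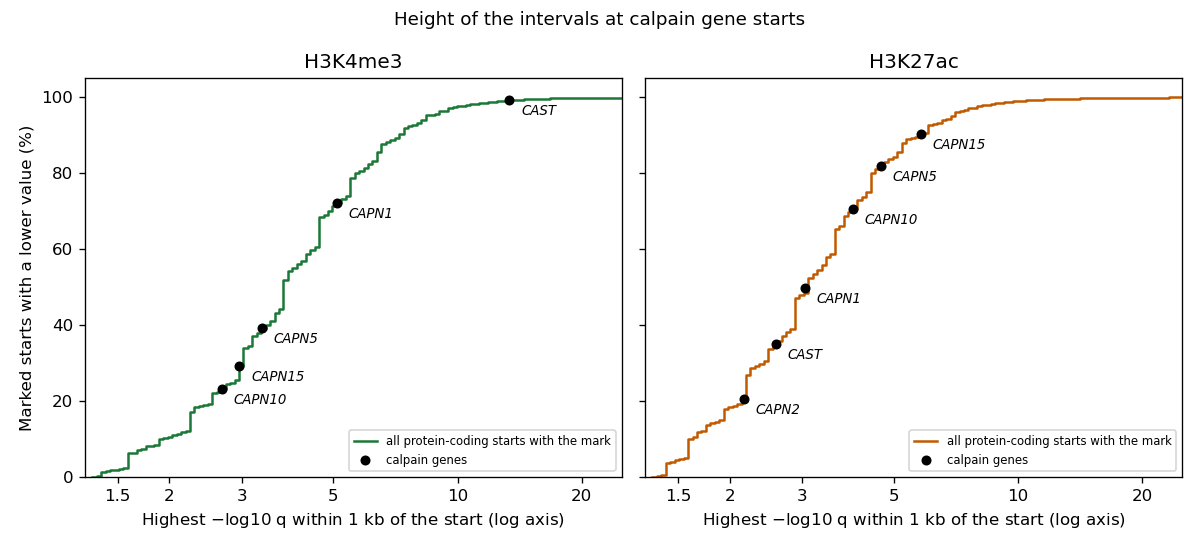
The curves give, for every value of the highest −log10 q within 1 kb of the start (x axis, logarithmic), the percentage of marked protein-coding starts with a lower value (y axis), and black points mark the calpain genes. CAST lies at 99.3% for H3K4me3 and 35.2% for H3K27ac, whereas CAPN15 lies at 29.3% and 90.3%.

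The length under intervals from 2 kb upstream to 5 kb downstream of the start set CAPN1 apart from most of its relatives for H3K4me3. CAPN1 had 2387 bp, more than 99.3% of protein-coding genes with a marked start, whose median was 566 bp. CAPN15 had 1626 bp (above 95.8%), CAST 1234 bp (89.0%), CAPN10 885 bp (74.5%), CAPN2 538 bp (47.0%), CAPN5 269 bp (14.4%), CAPNS1 215 bp (6.25%) and CAPN7 none. The corresponding H3K27ac lengths were 1673 bp for CAPN15 (above 96.7%), 1285 bp for CAPN5 (93.2%), 1069 bp for CAPN2 (88.9%), 843 bp for CAPN1 (80.8%), 460 bp for CAST (52.1%), 236 bp for CAPN10 (14.8%) and 216 bp for CAPNS1 (9.18%), with a median of 442 bp. CAPN1 had the longest H3K4me3 and CAPN15 the longest H3K27ac of the 8 genes. When only intervals at or above the median −log10 q of their list were kept, the H3K4me3 length of CAPN15 fell to 0 bp, and with the outer gene start the H3K27ac length of CAPN2 was 2123 bp, above that of CAPN15.

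Of the catalytic subunit genes, CAPN1 (chr11:64948037-64979477, 31.4 kb, 22 exons in the canonical transcript) carried its marks close to the start. An H3K4me3 interval of 1667 bp covered exons 1 to 4, both untranslated and coding, and contained the 2 H3K27ac intervals at 41 to 664 bp, over the untranslated part of exon 1, and at 1003 to 1221 bp, over coding bases of exons 2 and 3. The smaller of these, 219 bp wide, had the higher −log10 q (5.12 against 3.05). A narrower H3K4me3 interval 751 to 489 bp upstream (3.68) lay over the antisense transcript CAPN1-AS1. It also covered the start of another annotated CAPN1 transcript, and it cannot be assigned to either gene. Past 2422 bp the body held no further H3K4me3, and 2 weak H3K27ac intervals, in an intron at 23580 bp (1.41) and over exon 20 at 28229 bp (2.09). In all, H3K4me3 covered 7.59% of the body and H3K27ac 3.90%.

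CAPN2 (chr1:223889295-223963720, 74.4 kb) differed in where and how much it was marked. H3K27ac covered 8.66% of its body in 12 intervals, more intervals than 99.3% of protein-coding genes had, and H3K4me3 covered 1.77% in 5. Of the H3K27ac intervals, 4 lay 9865 to 3007 bp upstream of the canonical start, inside the gene only because a longer transcript begins 10946 bp upstream. One covered coding bases of exon 1 (334 to 813 bp), 3 lay in introns at 3067 to 7043 bp, and the last 4 lay 56639 to 62010 bp downstream near the gene end, with none between these groups. The highest value among them was 4.64, for an interval 1219 bp wide at 4225 to 3007 bp upstream. The highest H3K4me3 value, 4.73, belonged to an intronic interval at 4851 to 5069 bp that H3K27ac did not overlap. Per 10 kb of body, CAPN2 had 1.61 H3K27ac and 0.672 H3K4me3 intervals, against 1.27 and 0.954 for CAPN1.

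The upstream flank of CAPN2 holds CAPN8, which encodes a catalytic calpain known from the gastrointestinal tract and is read from the opposite strand. The 3 highest H3K27ac intervals around the CAPN8 start reached −log10 q values of 7.83, 6.90 and 6.88. They lay 6049, 82 and 9253 bp from it, in that order. All were above at least 97.7% of the H3K27ac list and above every H3K27ac interval over the CAPN2 body. Lower intervals lay at 1124 bp (4.45), 5023 bp (1.55) and 12763 bp (3.32) from the same start. An H3K4me3 interval with a value of 3.98 lay 82 bp from the CAPN8 start. The interval of 990 bp at that start had 36.8% of its 32-base words in more than 1 place in the genome, and the one at 9253 bp 30.8%, and the part of mapping in these values was not tested.

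CAPNS1 (chr19:36630855-36641255), the gene for the regulatory subunit that CAPN1 and CAPN2 have in common, had little of either mark. Its body of 10.4 kb held 1 H3K4me3 interval, 1319 to 1533 bp downstream of the canonical start in an intron and over the start of a shorter annotated transcript, with a −log10 q of 2.23. No H3K27ac interval lay over the body. The nearest one ended 1040 bp upstream (2.66), and 60% of its 32-base words were repeated elsewhere in the genome. In the surroundings, H3K4me3 was found at 29 of 70 protein-coding starts within 1 Mb (41.4%) and H3K27ac at 13 (18.6%), so the region as a whole was not free of marks. Among the neighbours was POLR2I, a subunit gene of RNA polymerase II, with intervals of both marks (2.05 and 2.62) 106 and 197 bp from its start. An interval missing from a list is not the absence of the mark, since the depth of the libraries is unknown here.

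CAST (chr5:95860971-96115299, 254 kb) had the strongest H3K4me3 of the 8 genes, an interval of 799 bp at 650 to 1448 bp (13.4). It lay in an intron of the canonical transcript and over the start of another annotated CAST transcript. The interval across the canonical start, over untranslated and coding bases of exon 1, reached 7.90. It overlapped by 123 bp an H3K27ac interval with 2.59. Within the body there were 5 H3K4me3 and 11 H3K27ac intervals, but with the length of the gene this came to 0.197 and 0.433 per 10 kb. The annotated gene begins 137109 bp before the canonical start, and no interval of either mark lay within 1 kb of that outer start. The highest H3K27ac values were 6.18 at 39200 to 39773 bp, in an intron, and 6.07 at 5931 to 5617 bp upstream, the interval whose sequence is printed above. At the intronic site the overlapping H3K4me3 interval (2.78) consisted to 82.8% of repeated words, against 29.5% of the wider H3K27ac interval, and none of the words of the upstream interval were repeated. Downstream, ERAP1, an aminopeptidase gene of antigen processing, had H3K4me3 of 8.41 at 79 bp from its start.

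**Figure D3:**
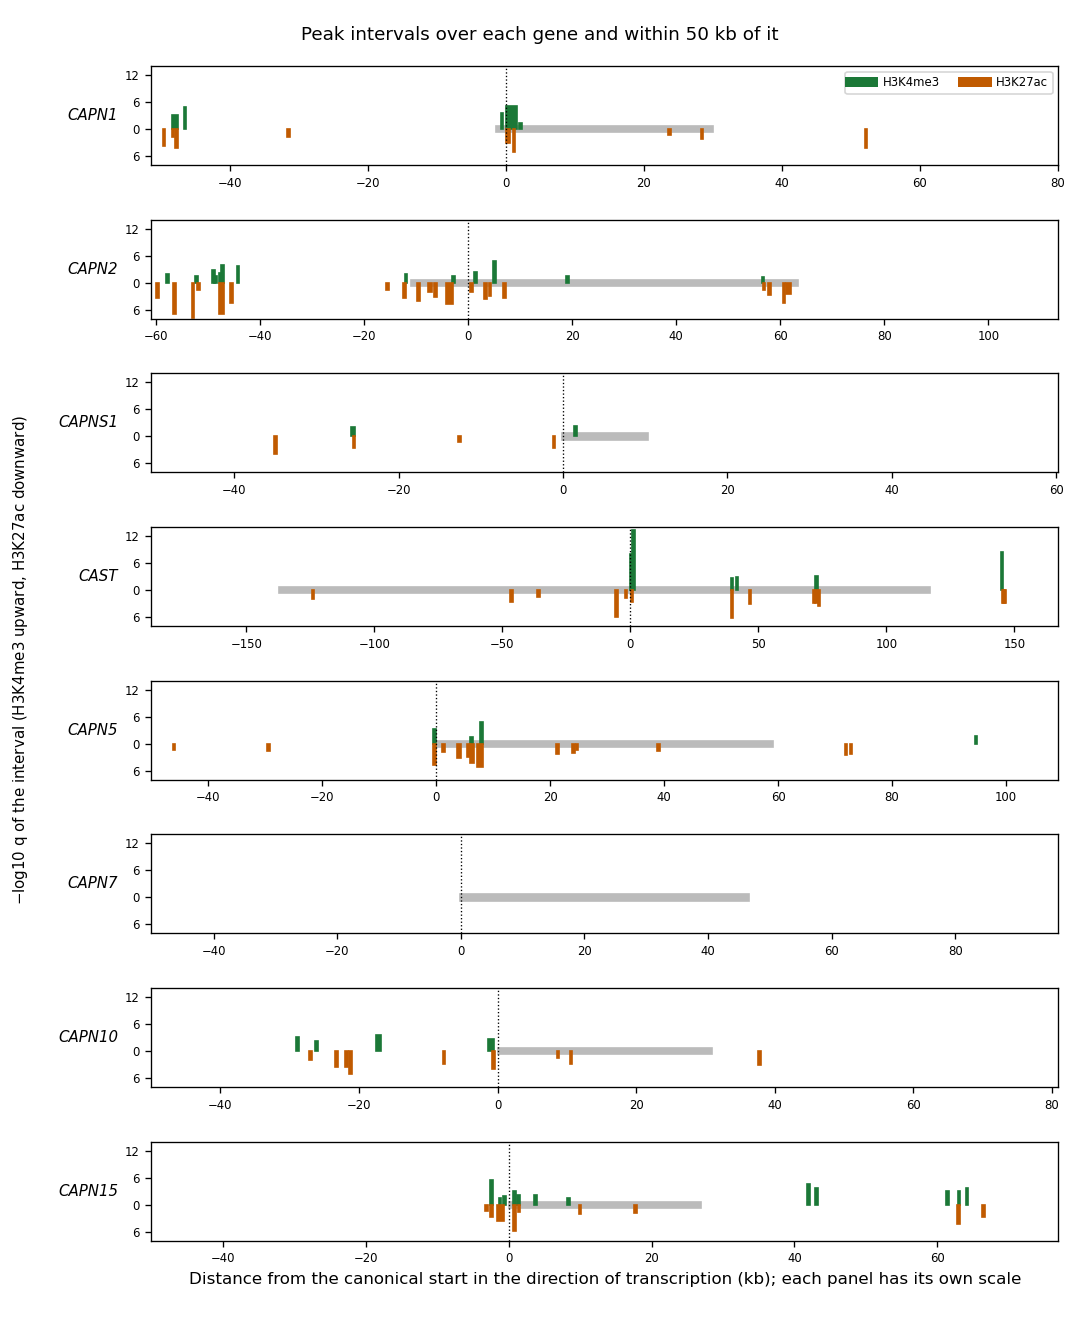
Each panel shows 1 gene with 50 kb on each side, at its own scale of kb from the canonical start (x axis), and the −log10 q of the intervals (y axis, H3K4me3 green upward, H3K27ac orange downward), with the annotated gene as a grey bar and intervals drawn at no less than a fixed minimal width. CAPN2 and CAST carry H3K27ac at several places along the body (12 and 11 intervals). CAPN1 carries it near its start and, with lower values, farther along its body (4 intervals). The upstream group in the CAPN2 panel surrounds the start of CAPN8.

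Among the non-classical calpains, CAPN5 (chr11:76778008-76837201) and CAPN10 (chr2:241526151-241557122) carried H3K4me3 upstream of the start and not directly behind it. At CAPN5 an H3K4me3 interval 596 to 328 bp upstream (3.36) contained an H3K27ac interval of 232 bp (4.65). H3K27ac then continued into the gene with 5 intervals from 1086 to 8242 bp, the last of them 1078 bp wide and the highest of the gene (5.13), and 4 weaker ones from 21076 to 39009 bp. Both H3K4me3 intervals in the body, at 5966 and 7620 bp, overlapped H3K27ac intervals. In total H3K27ac covered 7.29% of the CAPN5 body and H3K4me3 1.52%, an unequal split like that of CAPN2.

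At CAPN10, named in studies of type 2 diabetes risk, the marks near the start lay 1372 to 488 bp (H3K4me3, 2.68) and 803 to 568 bp (H3K27ac, 3.98) upstream, over the divergent noncoding transcript CAPN10-DT. Whether they belong to that transcript or to CAPN10 cannot be told apart from the positions. The body held no H3K4me3 and 2 H3K27ac intervals, over exon 7 (1.53) and in an intron (2.82). Its flanks were rich in neighbours, of which RNPEPL1 and ANKMY1 had H3K4me3 of 3.65 and 3.21 at 635 and 44 bp from their starts and GPR35 H3K27ac of 3.05 at 715 bp.

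CAPN15 (chr16:577712-604636) had intervals of both marks on both sides of its start. Upstream, 3 H3K4me3 and 3 H3K27ac intervals lay between 3235 and 394 bp from the start, most of them over the noncoding gene LINC00235. The highest values there were 5.41 for H3K4me3, at 2581 to 2269 bp, and 3.55 for H3K27ac, at 1678 to 576 bp. Downstream, an H3K4me3 interval at 633 to 981 bp (2.96) shared 239 bp with an H3K27ac interval (5.82), the highest H3K27ac at any of the 8 starts. CAPN15 and CAPN1 had the largest H3K4me3 shares of the body (5.16% and 7.59%). Within 50 kb downstream lay the marked starts of PIGQ (H3K4me3 of 4.6 at 306 bp) and RAB40C (H3K27ac of 4.32 at 372 bp).

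CAPN7 (chr3:15247659-15294423, 46.8 kb), a calpain linked to the ESCRT sorting machinery, was the member without intervals. The nearest H3K4me3 interval lay 606 kb from the gene and the nearest H3K27ac interval 57.1 kb, the latter just outside the 50 kb limit. CAPN7 stood in an H3K4me3-free stretch of 1680 kb that held 18 protein-coding starts, and in an H3K27ac-free stretch of 836 kb with 8. None of the 16 protein-coding starts within 1 Mb carried either mark. H3K4me3 was found at 33.9% of the starts on the short-arm side of chromosome 3 and 54.2% on the long-arm side, and H3K27ac at 17.2% and 28.1%. In the first 30 Mb, a bound set after the values were seen, the shares were 21.7% and 6.20%. The copy number of this region in H2087 was not tested, and a lack of marks on CAPN7 alone cannot be told apart from a lack over the region.

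The intervals in the bodies of the 8 genes were then compared between the marks. Of 20 H3K4me3 intervals, 10 shared at least 1 bp with H3K27ac (50%, Clopper-Pearson 95% interval 27.2 to 72.8), against 33.2% over the bodies of all protein-coding genes. Of 42 H3K27ac intervals, 11 overlapped H3K4me3 (26.2%, 13.9 to 42.0), against 29.4%. Both 95% intervals include the value over all genes and cover counting error only. They treat the peak intervals as independent, although several lie in the same gene, so they were not used as a test. The median −log10 q was 2.57 for H3K4me3 (2.97 in the whole list) and 2.73 for H3K27ac (2.65), and the median widths were 312 and 313.5 bp (305 and 284 bp). Most of these intervals had unique sequence, since 16 of the 20 and 32 of the 42 held no repeated 32-base word.

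**Figure D4:**
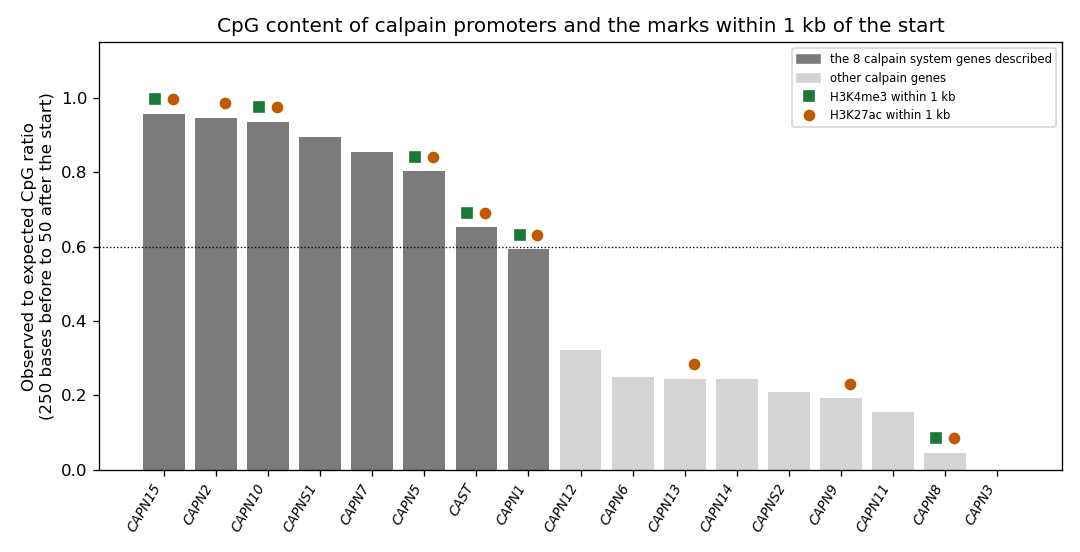
Bars give the ratio of observed to expected CpG in the promoter window of each calpain gene (y axis), in falling order, dark for the 8 genes described and light for the other calpain genes, with symbols for H3K4me3 (square) or H3K27ac (circle) within 1 kb. The 8 genes range from 0.593 (CAPN1) to 0.957 (CAPN15), whereas the 9 others lie at 0.322 or less, and CAPN8 carries both marks at 0.0463.

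The promoters, taken from 250 bases before to 50 bases after the canonical start, were rich in CpG dinucleotides in most members. The ratio of observed to expected CpG was 0.957 for CAPN15, 0.946 for CAPN2, 0.935 for CAPN10, 0.896 for CAPNS1, 0.855 for CAPN7, 0.803 for CAPN5, 0.652 for CAST and 0.593 for CAPN1. CAPN1 and CAST, with the highest H3K4me3 −log10 q within 1 kb of the start, thus had the lowest ratios of the 8. The unmarked CAPN7 and CAPNS1 lay above them. By H3K4me3 length around the start, CAPN15, with the highest ratio, came next after CAPN1 (1626 and 2387 bp). Over all genes, H3K4me3 was found at 57.1% of starts with a ratio of at least 0.6 and 9.37% of the others, and H3K27ac at 33.6% and 8.26%. GGGCGG occurred on either strand in 7 of the 8 promoters (all but CAPN2), against 60.9% of all promoters, and CCAAT in CAPN1 and CAPN10 (35.9%). No member held TATAAA (9.80% of all promoters), CCGGAAGT of ETS factors (6.09%) or AANATGGC of YY1 (8.08%), which says only that these letters are not in the windows searched. The 5 motifs were counted separately on both strands, and overlaps between them were not removed.

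The 9 other calpain genes included 1 with H3K4me3 within 1 kb of the start (CAPN8) and 3 with H3K27ac (CAPN8, CAPN9 and CAPN13), against 41.3% and 25.2% of all protein-coding genes, all with CpG ratios under 0.6. CAPN8 and CAPN9 encode the subunits of a calpain of gastric mucus cells. The CAPN9 start had an H3K27ac value of 8.16, above 97.9% of marked starts and above all 8 members, and no H3K4me3 interval nearer than 5766 bp. The muscle calpain gene CAPN3, the X-linked CAPN6, and CAPN11, CAPN12, CAPN14 and CAPNS2 had neither mark within 1 kb of the start. CAPN12 did hold 1 H3K4me3 and 3 H3K27ac intervals in its body. Among 12 genes for known calpain substrates of the cytoskeleton and adhesions, 10 were marked by H3K4me3 (41.3% of all genes), 8 by H3K27ac (25.2%) and the same 8 by both marks (20.4%), among them SPTAN1, VCL, PTK2 and ITGB1, whereas FLNA and CTNNB1 had neither.

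Likeness to CAPN1 was the Jaccard index of covered bases, averaged over both marks. It was taken from 2 kb upstream to 5 kb downstream of the start. The gene most like CAPN1 was the chaperone gene HSPA8 (0.611). It was followed by TSFM (0.607), KMT5C and the overlapping gene AC020922.1 (0.606), and the transcription factor gene E2F4 (0.6). None of these is a calpain. Of the relatives, CAST ranked 678th (0.355), CAPN2 3068th (0.181), CAPN15 4094th (0.138), CAPN5 7297th (0.0553), CAPNS1 7982nd (0.0450) and CAPN10 8065th (0.0437), and CAPN7 had no covered base to compare. The index describes where the marks lay and nothing else about these genes.

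The cell type was checked on gene starts in the same way. Both marks lay at 5 of 7 lung and epithelial marker genes, including NKX2-1, KRT7, EPCAM and CDH1, against 20.4% of all protein-coding genes. PTPRC, COL1A1 and TP63, which mark other cells, had neither within 1 kb, a state shared by 53.8% of all genes. COL1A1 and TP63 did hold intervals of both marks in their bodies, with H3K4me3 at 1391 bp from the COL1A1 start. The surfactant gene SFTPB and NAPSA, which also mark lung adenocarcinoma, were unmarked within 1 kb of the start. NAPSA held 1 H3K4me3 interval in its body.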

How the data were processed

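H2087 cells were profiled by ChIP-seq in 1 library per mark. According to the methods and the submitters' processing notes, the authors aligned reads to hg19 with Bowtie 1.1.1 and called peaks with MACS2 2.1.0, and the notes also name SAMtools 1.2, Picard 1.118, bcl2fastq 1.8.4 and ChIPseeker 1.6.6, whose gene assignment was not used. The methods name the input as kept for normalization. The peak threshold, and whether the input was the control in peak calling, are not given in the sources used here. The deposited lists hold positions and a value without header, which was read as the −log10 q of the authors' peak caller, because the smallest values (1.306 for H3K4me3, 1.303 for H3K27ac) lie at the −log10 of a q of 0.05 (1.301). This value grows with depth and local copy number, so it was compared only within a list. Read counts are not in the lists, and depth is unknown.

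Entries per summit (20282 for H3K4me3, 25275 for H3K27ac) were reduced to distinct intervals with the highest value kept. Genes came from GENCODE 44 mapped to GRCh37, with the Ensembl canonical start (281 of 20162 genes had no such tag, and their outer start was used). A start was marked when an interval lay within 1 kb, marks overlapped when they shared 1 bp, and positions are 1-based. The interval code was tested on simulated intervals. Multi-copy sequence was the share of 32-base words, on both strands, found more than once in the assembly. Sequences and promoter windows were read from the GRCh37 assembly, and shares have Clopper-Pearson 95% intervals. Python 3.11.15 with pandas 2.3.3, numpy 2.4.6, scipy 1.17.1 and pysam 0.24.0 was used.

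The 8 genes and the lists of calpains, substrates, markers and motifs were chosen with earlier results of these data known. Named were all 8 genes and all other calpains, at most 3 neighbours per gene whose start was the nearest to an interval and within 1 kb of it, by −log10 q, the 5 genes most like CAPN1, and up to 4 examples of other lists, apart from FLNA, CTNNB1, SFTPB, NAPSA and the noncoding genes under intervals, which were named after their values were seen. The alternatives were other definitions of a start, other distances and flanks, and stricter, merged or unreduced intervals. Leaving out intervals of multi-copy sequence was added after the data had been seen. A further marker of other cells is not reported here.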

Additional observations from a re-analysis of the deposited data

How the results depend on the processing

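No paired analysis was possible because there was a single library for either mark. Of 47 counts, shares and sums recomputed under the alternatives, 33 stayed close to the main value and 14 did not. Close meant within a factor of 1.5 or, for shares, within the 95% interval. That interval is wide (27.2 to 72.8 for H3K4me3 and 13.9 to 42.0 for H3K27ac), so it is a lenient bound. The recomputed shares also rest largely on the same intervals. Both marks were found at 3 starts, not 5, with the outer gene start (CAPN1 and CAST dropped out) or within 500 bp (CAPN10 and CAPN15 dropped out), against 18.6% and 14.6% of all protein-coding genes. When only intervals at or above the median −log10 q of their list were kept, H3K4me3 marked 3 starts (29.1% of all genes) and both marks 2 (11%), the intervals within 50 kb fell to 21 for H3K4me3 and 46 for H3K27ac, and the summed H3K4me3 length around the starts fell from 7154 to 3583 bp. At a −log10 q of at least 5, H3K4me3 marked 2 starts (CAPN1 and CAST, against 11.8% of all genes). H3K27ac marked 1 (CAPN15, 3.78%), and both marks were found at 0 (1.82%). The CAPN1 H3K27ac interval of 5.12 began at 1003 bp, just outside the 1 kb limit, and was not counted. With flanks of 10 or 100 kb the H3K4me3 intervals numbered 26 and 71, not 46. Counting the other mark within 1 kb raised the shared H3K4me3 intervals to 75.0%. By the Jaccard index of H3K4me3 alone, 0 of the 5 genes most like CAPN1 remained among the first 5. With any annotated transcript start, or within 3 kb, both marks were found at 7 starts, all but CAPN7, against 25.3% and 25.2% of all genes. Of 32 lengths for single genes and marks, 10 moved, in CAPN2, CAST, CAPN10, CAPN15 and CAPNS1, among them CAST, which had none around its outer start. Leaving out multi-copy intervals, an alternative added after seeing the data, gave 44.4% and 22.0% shared intervals and no change in the marked starts.

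The unknown depth limits every statement on missing intervals. Each value rests on 1 library, and its spread over repeated experiments could not be measured.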

Other observations

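Motifs were searched, after the values had been seen, in windows of 300 bases centred on the intervals over the 8 gene bodies. The windows run past the edges of shorter intervals, so a match need not lie inside one. TGANTCA of AP-1 factors was found on either strand in the windows of 3 of 20 H3K4me3 intervals (CAPN15 and CAST). For H3K27ac it was found in those of 3 of 42 (CAPN1 and CAST), against 3.75% and 5.03% of the whole lists. TGTTTAC of forkhead factors was found in 0 of 20 and 1 of 42 (CAPN2), against 2.08% and 1.73%. The counts are too small to set these genes apart from the lists, and a match does not show binding.

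Around CAPN1 the protein-coding starts were marked densely, with H3K4me3 at 56 of 90 starts within 1 Mb (62.2%) and H3K27ac at 53 (58.9%), against 44.9% and 31.4% on the whole of chromosome 11. Around CAPN5, on the same chromosome, H3K4me3 was found at 12 of 19 (63.2%) and H3K27ac at 8 (42.1%). The marked neighbour of CAPN1 was SYVN1, a ubiquitin ligase gene of the endoplasmic reticulum, with H3K4me3 of 4.88 at 751 bp and H3K27ac of 4.28 at 225 bp from its start.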
